A study of Mus musculus with 38 samples.

Results

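Borderline lesions (BL) of the mouse thyroid were compared with benign hyperplastic lesions (BHL) from thyroids that carried the same oncogene. Mice were assigned by their labels for lesion and mutation status, which gave 10 BL and 4 BRAF(+) BHL, 14 of the 38 mice arrayed. All 14 were FVB/N mice transgenic for the human BRAFV600E cDNA under the bovine thyroglobulin promoter, which targets follicular cells, and all were labelled positive for BRAFV600E. In BL a few cells carry the altered nuclei of papillary carcinoma without a formed tumour, whereas BHL is a non-malignant overgrowth of follicular tissue. The BL group held 8 females and 2 males aged 4 to 21 months, with a median of 10.5 months. The BRAF(+) BHL group held 3 females of 10 or 11 months (M_942, M_943 and M_997) and 1 male of 4 months (M_958), so that sex and age cannot be told apart within it. By the account of the study, its BRAF(+) BHL came from the transgenic line tg3 and its BL from tg3 and tg2, and line could not be entered in a fit because the labels do not give it per mouse. RNA was taken from one portion of each gland, with pieces of both lobes, and the lesion was read in the rest, so the tissue on the array was not the tissue that was classified.

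Follicular cells import iodide through the sodium/iodide symporter, attach it to thyroglobulin and release thyroid hormone under the control of thyrotropin. The BRAFV600E kinase signals without a stimulus through MEK and ERK, a cascade that induces its own inhibitors, such as the Dusp phosphatases and the Sprouty proteins, and is known for lowering iodide handling genes. Thyroid lesions also hold fibroblasts, matrix and immune cells, and in whole tissue fewer cells of a type cannot be told apart from less RNA per cell.

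Signals are log2 values after the RMA normalization of the authors, with 1 array per mouse, and a difference of 1 is a 2-fold change. Array medians lay between 6.08 and 6.15 in the 14 mice, and the signal of the Y-linked gene Eif2s3y matched the labelled sex in 14 of 14. Tg, the gene of thyroglobulin, was at 13.30 to 13.73 in BL and at 13.52 to 13.65 in BRAF(+) BHL. High levels of parathyroid, muscle or squamous epithelium markers were found on 3 BL arrays and on no BRAF(+) BHL array, whereas the brown adipocyte score was highest in the BRAF(+) BHL mouse M_958 (1.22). The parathyroid hormone gene Pth reached 12.56 in BL mouse M_527 and 11.68 in M_649, against at most 4.10 in the other 8 BL mice and at most 3.33 in BRAF(+) BHL. The muscle actin gene Acta1 reached 12.76 in M_530 and 11.28 in M_527, against at most 6.68 in the other BL mice and 6.99 in BRAF(+) BHL. The keratin gene Krt5 of squamous epithelium was at 11.19 in M_530, against at most 7.03 in the other BL mice and 6.69 in BRAF(+) BHL. The counts of probe sets, Pygm and the C cell, airway, surfactant and muscle lists are given below with and without M_527, M_530 and M_649. Without these 3 mice the median difference of BL minus BRAF(+) BHL went from 0.98 to 0.18 for parathyroid genes. For squamous genes it went from 0.39 to -0.09.

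No probe set separated BL from BRAF(+) BHL after correction. Of the 4388 probe sets that passed the filter on flat signals, 0 (0%) had an adjusted p under 0.05 by limma, and the smallest adjusted p was 0.189. At an unadjusted p under 0.05 there were 286 probe sets (6.52%), 220 with the higher mean in BL and 66 with the lower. Of the 4388, 2523 had no listed gene, and at any p 2696 had the higher mean in BL and 1692 the lower. Without the filter, limma again gave 0 of 35556, with 2575 at an unadjusted p under 0.05. Among the 19938 named genes without the filter the split was the reverse, with 535 (2.68%) higher and 1091 (5.47%) lower in BL at that level. Without the 3 BL mice named above there were 0 calls and 298 probe sets at an unadjusted p under 0.05. The unadjusted count was 133 without the BRAF(+) BHL mouse M_997. The 95% interval of a difference reached a median of 0.60 on the log2 scale to either side (1.52-fold). Only 5 probe sets (0.114%) had groups that did not overlap, and Grp was the only one of them with a gene name. Among females alone limma gave 0 calls and 317 probe sets at an unadjusted p under 0.05, and among females of 10 and 11 months 0 calls and 195.

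**Figure D1:**
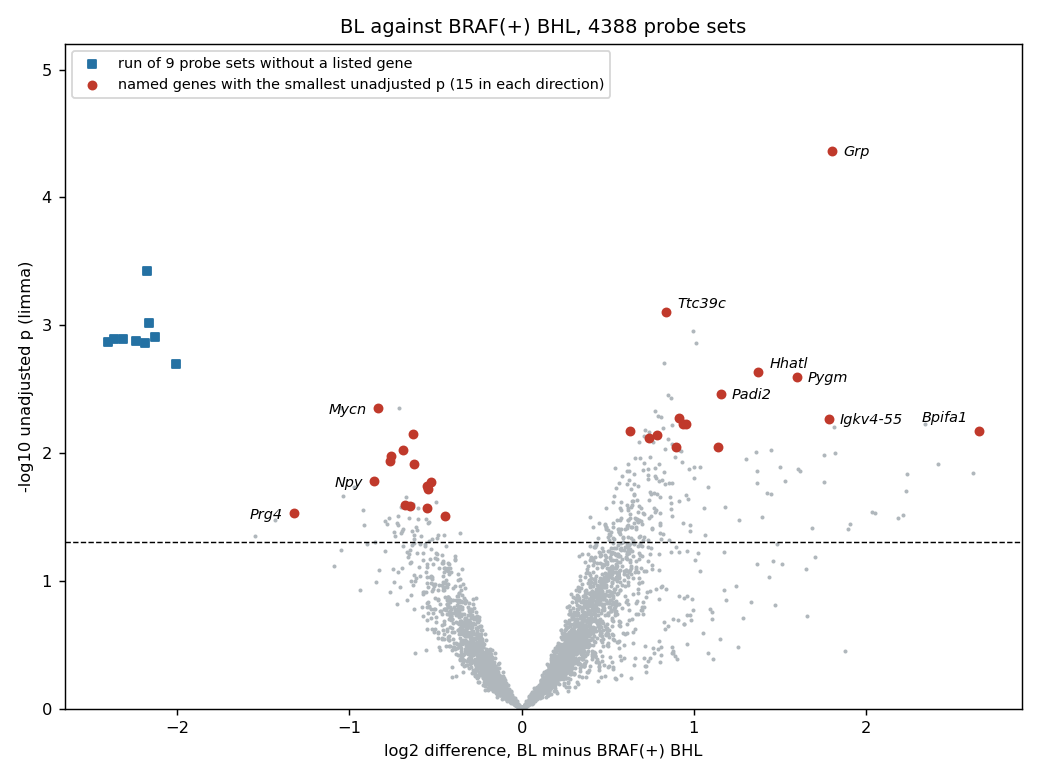
Log2 difference of BL minus BRAF(+) BHL (horizontal axis) against the unadjusted p of limma (vertical axis, -log10 scale) for the 4388 probe sets tested, with the dashed line at p = 0.05. Grp stands highest at a difference of 1.80, a run of 9 probe sets without a listed gene lies at -2.40 to -2.01, and no point passed correction.

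Grp, the gene of gastrin-releasing peptide, a neuropeptide that stimulates growth and secretion, came closest to a call. Its log2 signal in BL had a lowest value of 9.98, a median of 10.65 and a highest value of 12.35, against 9.76, 8.86, 9.18 and 8.71 in the BRAF(+) BHL mice M_942, M_943, M_958 and M_997. All 10 BL mice lay above all 4 BRAF(+) BHL mice. The log2 difference was 1.80 ± 0.39 (SE; 95% interval 1.01 to 2.60), or 3.49-fold, with an adjusted p of 0.189 from limma. Across 30 alternative settings the difference stayed between 1.62 and 1.98, and Grp passed the threshold in 2 of them. These were array weights (adjusted p = 0.0321 from limma) and muscle and adipocyte scores as covariates (0.0483 from limma). With the covariates the difference was 1.77 ± 0.39 (SE), no larger than in the main fit. All 9 calls of that setting shared the adjusted p, so it was not set by Grp alone. The other calls lay in the run of probe sets without a listed gene, which are not independent observations. The low side belonged to BRAF(+) BHL: mean Grp signal was 10.62 in papillary carcinomas (PTC), 11.28 in BRAF(+) asymptomatic thyroids (AT), 11.91 in BRAF(-) BHL and 11.54 in BRAF(-) AT. Among the 15 measured genes of the C cell and neuroendocrine list, which holds Grp, 10 had the higher mean in BL and 5 the lower, with a median of 0.12 (0.02 without M_527, M_530 and M_649). Besides Grp, Slc18a2, a transporter of monoamines into vesicles, and Tph1, of serotonin synthesis, had an unadjusted p under 0.05 by limma, both with the lower mean in BL (-0.24 and -0.20), so that 1 of 15 was higher and 2 were lower, against 2.68% and 5.47% of all named genes. Ret, a receptor kinase of C cells, differed by 0.40 ± 0.28 (SE).

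Of the 15 named genes with the smallest unadjusted p and the higher mean in BL, none but Grp had an adjusted p under 0.50 by limma (0.504 to 0.691 for the other 14). Ttc39c, a gene of little-known function, was at 7.19 to 8.92 in BL (median 7.58), against 7.04, 7.04, 7.29 and 6.31 in M_942, M_943, M_958 and M_997. Thus 7 of 10 BL mice were above every BRAF(+) BHL mouse, for a difference of 0.84 ± 0.23 (SE). Hhatl, which encodes a homologue of an acyltransferase of Hedgehog proteins, was at 5.91 to 8.78 in BL (median 7.85), against 5.62, 5.63, 7.96 and 5.58. Here M_958 lay inside the BL range and the 3 BRAF(+) BHL females lay below every BL mouse. Padi2, a peptidylarginine deiminase, followed the same order, with 6.52 to 8.95 in BL (median 7.94), against 6.29, 6.50, 7.77 and 6.23. The remaining genes of this set were Smoc2, a matricellular protein gene (0.91 ± 0.31, SE), Ehf, an epithelial ETS factor (0.95 ± 0.33), Got1, an aspartate aminotransferase (0.74 ± 0.26), Dnase1l3, a nuclease of dendritic cells and macrophages (1.14 ± 0.41), Slc25a33, a mitochondrial pyrimidine carrier (0.63 ± 0.22), and Gdpd1, Calml3, AW112010, Pygm, Bpifa1 and an immunoglobulin kappa variable segment.

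Pygm, which encodes muscle glycogen phosphorylase, was high in the BL mice with muscle RNA and in several without it. It was at 7.25 to 11.51 in BL (median 9.47), against 7.45, 7.31, 8.45 and 6.92 in M_942, M_943, M_958 and M_997. The highest BL value was that of M_530, one of the mice with muscle RNA, but M_649, M_416, M_1005 and M_80, with muscle scores of -0.04, -0.06, -0.13 and -0.22, were at 9.90, 9.66, 9.49 and 9.46. The difference was 1.60 ± 0.49 (SE; adjusted p = 0.691 from limma) over all mice and 1.02 without M_527, M_530 and M_649. Pygm was also at a mean of 10.09 in BRAF(-) AT.

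**Figure D2:**
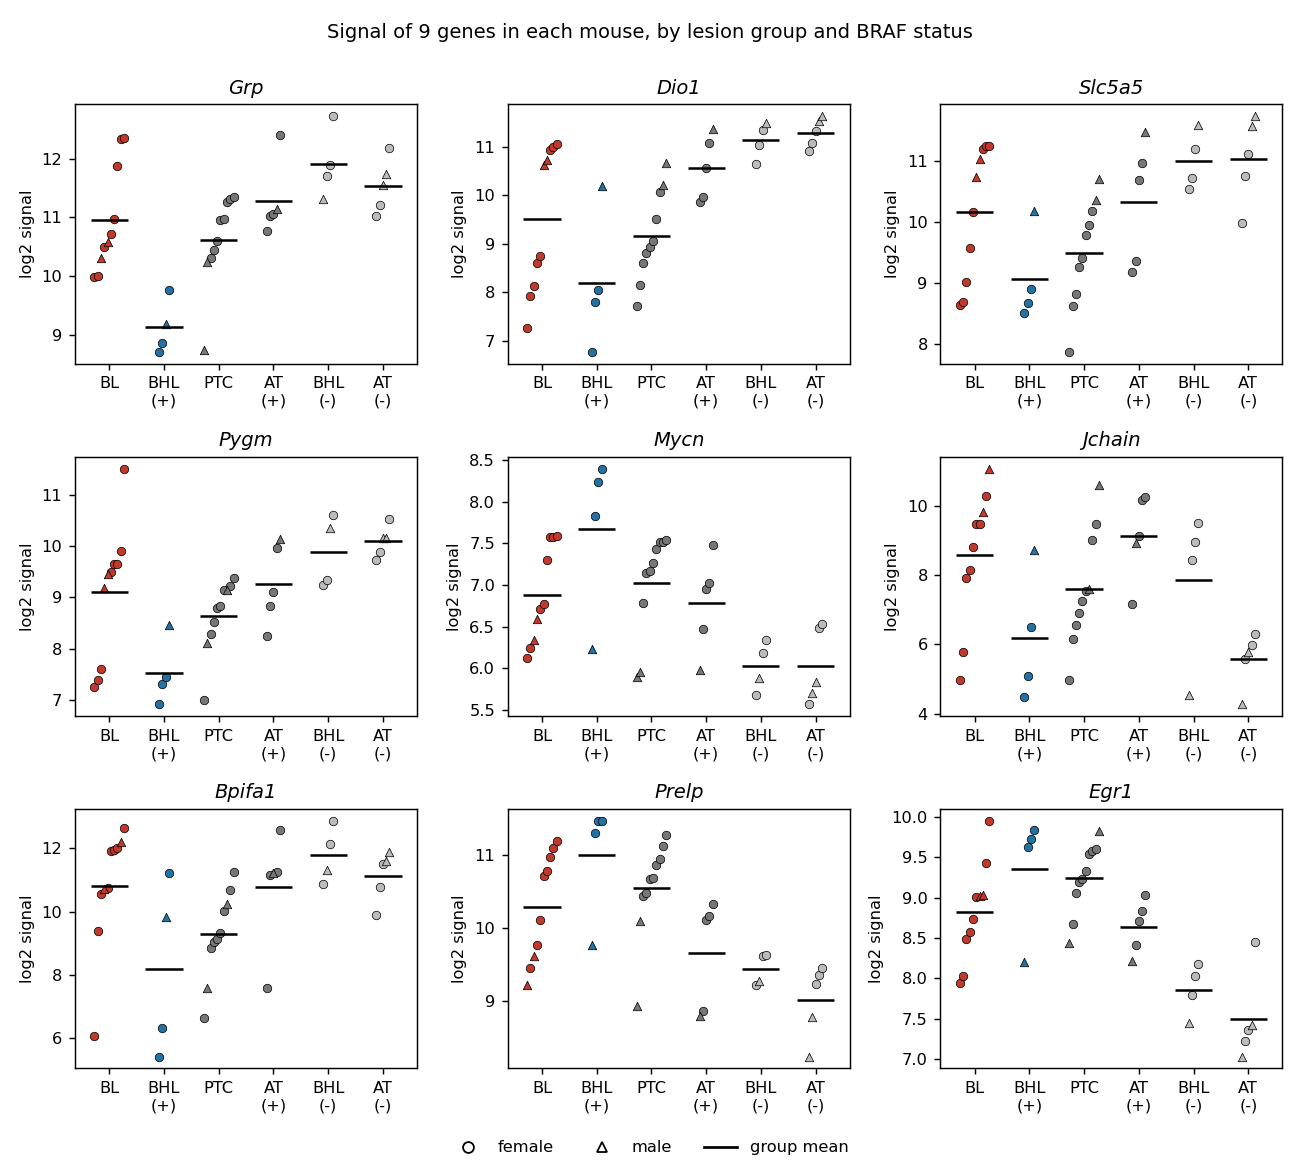
Log2 signal of 9 genes in each mouse (vertical axes) by lesion and BRAF status (horizontal axis; (+) and (-) give BRAF status), with circles for females, triangles for males and lines for group means. BL mice lie above all BRAF(+) BHL mice for Grp alone; for Dio1, Slc5a5, Mycn, Prelp and Egr1 the male BRAF(+) BHL mouse M_958 stands apart from the 3 females of its group and inside the BL range.

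Thyroid function genes leaned towards higher values in BL, without a call. Of 20 measured genes of this list, 14 had the higher mean in BL, with a median difference of 0.14 beside -0.01 over all 19938 named genes. Without the filter, 4 of the 20 had an unadjusted p under 0.05 and a higher mean in BL, against 2.68% of all named genes, and none a lower mean, against 5.47% (8.16% in both directions). Dio1, the deiodinase that activates thyroxine, was at 7.27 to 11.05 in BL (median 9.69), against 7.80, 8.05, 10.18 and 6.77 in M_942, M_943, M_958 and M_997. Its difference was 1.36 ± 0.50 (SE; adjusted p = 0.691 from limma), or 2.57-fold, and 5 of 10 BL mice lay inside the BRAF(+) BHL range. Slc5a5, the sodium/iodide symporter, was at 8.65 to 11.26 in BL (median 10.46), against 8.90, 8.51, 10.18 and 8.68. It differed by 1.15 ± 0.42 (SE), with 5 BL mice above and none below the BRAF(+) BHL range. Slc5a8, a carrier of iodide and short monocarboxylates, differed by 0.94 ± 0.43. The thyroid hormone receptor gene Thrb (0.38 ± 0.21) and the thyrotropin receptor gene Tshr (0.32 ± 0.28) had intervals that included 0. The same held for Duox2, which makes hydrogen peroxide for iodination (0.40 ± 0.25), and Slc26a7, an anion carrier of the follicular cell (0.47 ± 0.28). The lineage factors differed little: Pax8 by 0.08 (95% interval -0.15 to 0.32), Nkx2-1 by -0.08 (-0.37 to 0.21) and Foxe1 by -0.12 (-0.43 to 0.19).

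The thyroid differentiation score, the mean log2 signal of 15 measured genes relative to their medians over the 38 mice, was -0.04 ± 0.32 in BL and -0.33 ± 0.22 in BRAF(+) BHL (SD, n = 10 and 4). It spanned -0.49 to 0.39 in BL, against -0.39, -0.44, -0.01 and -0.48 in M_942, M_943, M_958 and M_997. The BL mice covered the whole span of the BRAF(+) BHL mice and went beyond it at both ends. Mean scores were -0.19 in PTC, 0.12 in BRAF(+) AT, 0.25 in BRAF(-) BHL and 0.31 in BRAF(-) AT.

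Braf itself was measured by a probe set for the mouse gene that did not pass the filter. It was at 9.19 to 10.19 in BL (median 9.60), against 10.07, 10.07, 9.61 and 9.95 in M_942, M_943, M_958 and M_997. The means differed by -0.22, with a two-sided exact permutation p of 0.254 over the 1001 arrangements of the 14 mice. Of the 18 measured genes of the MAPK output list, 18 had the lower mean in BL, with a median difference of -0.27. At an unadjusted p under 0.05 by limma there was 1 of the 18, a share close to the 5.47% of all named genes that were lower in BL at that level. That gene was Phlda1, a gene induced by ERK, at 7.72 to 8.67 in BL (median 8.45), against 9.06, 9.28, 7.88 and 9.05. The 3 BRAF(+) BHL females were above every BL mouse and M_958 was near the bottom of the BL range, for a difference of -0.48 ± 0.18 (SE). Egr1, an immediate early transcription factor, was at 7.94 to 9.95 in BL (median 8.87), against 9.84, 9.72, 8.20 and 9.63. It differed by -0.55 ± 0.30, with an interval that included 0. The ERK phosphatase genes Dusp6 (-0.24 ± 0.20) and Dusp4 (-0.28 ± 0.20), the inhibitor gene Spry4 (-0.28 ± 0.15) and Fosl1, a partner of AP-1 (-0.29 ± 0.17), had intervals that included 0. The list's mean score, taken like the differentiation score, was -0.52 to 0.47 in BL, against 0.46, 0.49, -0.16 and 0.38 in M_942, M_943, M_958 and M_997. The score ran low where the differentiation score ran high in several BL mice, such as M_416 (-0.52 and 0.29) and M_649 (-0.31 and 0.39), and the reverse held in M_360 (0.47 and -0.33). Immediate early genes had the lower mean in BL in 11 of 12 cases, with a median of -0.22, which was -0.11 without M_943 and -0.36 without M_942. In the list of ERBB, MET and FGF receptors and ligands 9 of 23 genes had the higher mean in BL and 14 the lower (median -0.11, and -0.03 without M_943). Of its EGF receptor ligands, Ereg, epiregulin, differed by -0.90 ± 0.45, Hbegf by -0.56 ± 0.28 and Btc, betacellulin, by 0.08, and the receptor gene Fgfr2 differed by 0.37 ± 0.20.

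Mycn, a MYC family transcription factor, had the smallest unadjusted p of the named genes with a lower mean in BL. It was at 6.12 to 7.59 in BL (median 6.75), against 8.23, 7.83, 6.24 and 8.40 in M_942, M_943, M_958 and M_997. Again 3 of 4 BRAF(+) BHL mice were above all BL mice and M_958 was not. The difference was -0.84 ± 0.28 (SE; adjusted p = 0.691 from limma), and BRAF(-) thyroids had a mean of 6.03 in both BHL and AT. Npy, neuropeptide Y, was at 8.56 to 10.29 in BL (median 9.61), against 10.33, 10.95, 9.20 and 10.88, and differed by -0.86 ± 0.34. Styk1, a receptor-like kinase, Prrx2, a mesenchymal homeobox factor, Nox4, an NADPH oxidase, Grem1, an antagonist of BMP ligands, and Fgf18 differed by -0.77 to -0.62. Kirrel3, Adamts8, Agbl2, Fxyd3, Htra4, Ackr4, Prelp and Prg4 completed the 15, all with adjusted p of 0.691 by limma.

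Matrix genes were among those with lower means in BL. Of 25 measured extracellular matrix genes, 23 had the lower mean, with a median of -0.20, and 6 had an unadjusted p under 0.05 by limma in the fit over all probe sets (lower in BL for 5.47% of named genes): the elastin gene Eln, the thrombospondin genes Thbs1 and Thbs2, fibromodulin (Fmod), fibronectin (Fn1) and Col5a1. Fmod, a proteoglycan of tendon and other collagen-rich tissue, was at 5.65 to 10.24 in BL (median 7.59), against 10.09, 10.51, 5.74 and 10.54 in M_942, M_943, M_958 and M_997. Thbs4, found in tendon and muscle, was at 5.55 to 10.11 in BL (median 7.74), against 10.21, 10.81, 5.81 and 10.19. Both genes were high in the 3 BRAF(+) BHL females and low in the male, and the BL mice filled the space between. Fmod differed by -1.43 ± 0.65 and Thbs4 by -1.55 ± 0.75 (SE), and in females alone or without M_958 the matrix median was -0.44 or -0.43. It was -0.13 without M_416, M_943 or M_997, so single mice moved it by more than 1.5 times. Fn1 was at 10.31 to 12.20 in BL (median 11.21), against 11.86, 12.25, 10.64 and 12.07, and differed by -0.53 ± 0.27. Prelp, a leucine-rich proteoglycan, was at 9.22 to 11.19 in BL (median 10.41), against 11.30, 11.46, 9.76 and 11.46, and differed by -0.76 ± 0.28. Prg4, lubricin of joint and tendon surfaces, differed by -1.32 ± 0.59, but by -0.24 in females of 10 and 11 months. The cartilage gene Comp differed by -0.94 ± 0.58, the tendon factor Scx by -0.34 ± 0.20, and Tnmd, a defining tendon gene, by 0.33 ± 0.69. The other defining cartilage genes differed less, Col2a1 by -0.16 and Acan by 0.04. Of 20 measured tendon and cartilage genes, 17 had the lower mean in BL and 3 the higher (median -0.19, and -0.09 without M_997). In the TGF-beta and activin list 9 of 15 genes had the lower mean (median -0.17, and -0.07 without M_416), and the ligand gene Tgfb3 (-0.59 ± 0.29) and the activin antagonist gene Fst (-0.34 ± 0.15) had an unadjusted p under 0.05 by limma, against 5.47% of named genes lower in BL. Ltbp2, a protein of elastic fibres, differed by -0.72 ± 0.41. The fibroblast list had a median of -0.12, which was 0.06 without M_943 and -0.27 without M_958.

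**Figure D3:**
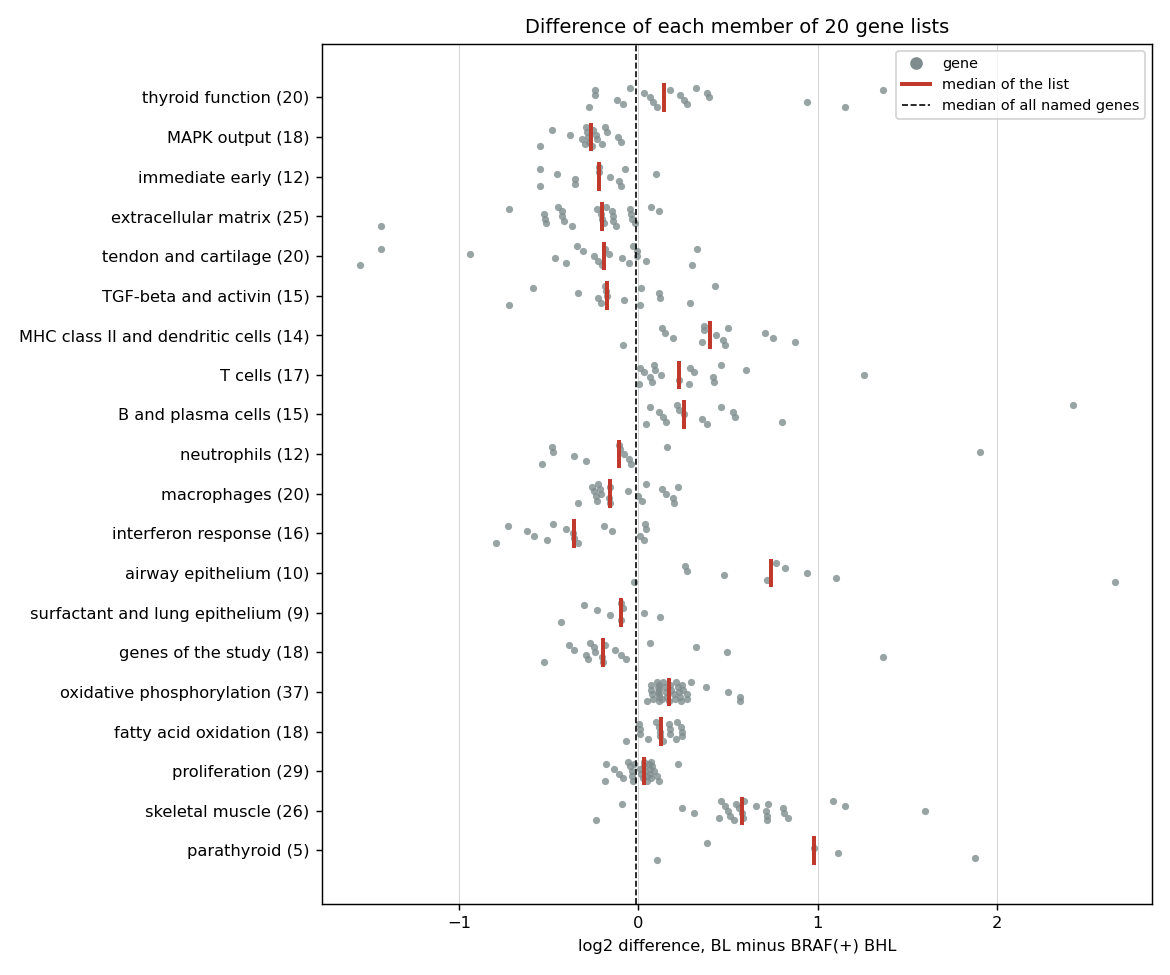
Log2 difference of BL minus BRAF(+) BHL (horizontal axis) for each measured gene (grey points) of 20 lists, with the number of genes in brackets; red bars are list medians and the dashed line is the median of all named genes. MAPK output lies wholly below 0, T cells, B and plasma cells and oxidative phosphorylation wholly above 0, and matrix lists have long tails to the left.

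Lymphocyte genes had higher means in BL, unevenly across mice. All 17 measured T cell genes had the higher mean, with a median of 0.23 that was 0.08 without M_942. Cd3g, a chain of the T cell receptor complex, was at 5.16 to 8.32 in BL (median 6.87), against 5.33, 5.65, 6.63 and 4.74 in M_942, M_943, M_958 and M_997. It lay above the BRAF(+) BHL range in 7 BL mice and inside it in 3, and differed by 1.26 ± 0.57 (SE; adjusted p = 0.691 from limma). This was the largest difference of the list: Cd3e differed by 0.42, Cd247 by 0.09, Cd8a by 0.08 and Cd3d by 0.03. All 15 measured B and plasma cell genes had the higher mean too, with a median of 0.25 that was 0.39 without M_997. Jchain, the joining chain of secreted antibodies, was at 4.96 to 11.08 in BL (median 9.15), against 5.07, 6.49, 8.71 and 4.49, and differed by 2.42 ± 0.92 (5.36-fold). The lowest BL values, in M_414 and M_528, were among those of the BRAF(+) BHL females. All 13 tested immunoglobulin probe sets, of 10 genes, had the higher mean in BL, by 0.53 to 2.24 (median 1.34), and 7 had an unadjusted p under 0.05 by limma, against 6.52% of all probe sets tested. These probe sets can share sequence and belong to the same cells, and are not 13 independent observations. Mzb1, a chaperone of plasma cells, differed by 0.54 ± 0.21. The kappa variable segment named above was at 3.50 to 7.80 in BL (median 5.82), against 3.97, 3.69, 5.25 and 3.37.

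Antigen-presenting genes leaned the same way, with 13 of 14 measured genes of the MHC class II and dendritic cell list higher in mean in BL (median 0.40, and 0.26 without M_942). Clec9a, a receptor of cross-presenting dendritic cells, differed by 0.88 ± 0.39 (SE), Flt3, a growth factor receptor of dendritic cell precursors, by 0.75 ± 0.38 and the MHC class II gene H2-Aa by 0.35 ± 0.33. Ccl5, a chemokine that attracts T cells, was at 6.61 to 9.07 in BL (median 8.02), against 6.83, 7.49, 6.96 and 6.18 in M_942, M_943, M_958 and M_997, and differed by 1.08 ± 0.44. Cxcl9, a chemokine induced by interferon gamma, differed by 0.87 ± 0.45. Of the 35 measured genes of chemokines and their receptors, 22 had the higher mean in BL and 13 the lower, with a median of 0.08. Those lower included Ccl7 (-0.43), Ccl6 (-0.37) and Ccl3 (-0.30). Macrophage genes had no lean towards higher values in BL: 7 of 20 were higher and 13 lower in mean in BL (median -0.16, and -0.00 without M_958), with Adgre1 at 0.16 ± 0.31 and C1qa at -0.26 ± 0.29. Interferon-induced genes had a median of -0.36, which was 0.15 without M_958. Of the 16 measured, 3 were lower in BL at an unadjusted p under 0.05 by limma and 0 higher, against 5.47% and 2.68% of named genes. The list score was 1.32 in BL mouse M_416 and at most 0.10 in the other 9 BL mice, against 1.62 in M_958 and -0.12, 0.23 and -0.05 in M_942, M_943 and M_997. Oasl2, an interferon-induced antiviral gene, was at 7.06 to 9.39 in BL (median 7.51), against 7.62, 8.05, 10.31 and 7.66. The neutrophil genes S100a8, S100a9 and Ngp, which differed by -0.48, -0.47 and -0.54, were also highest in M_958, at 5.52, 6.82 and 5.88, against at most 4.23, 5.41 and 3.97 in the other BRAF(+) BHL mice. Of the 12 measured neutrophil genes, 10 had the lower mean in BL and 2 the higher, Ltf (1.91) and Cxcr2 (0.16). At an unadjusted p under 0.05 by limma 5 were lower and 1 higher, against 5.47% and 2.68% of named genes. The median of this list was -0.10, and -0.01 without M_958.

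**Figure D4:**
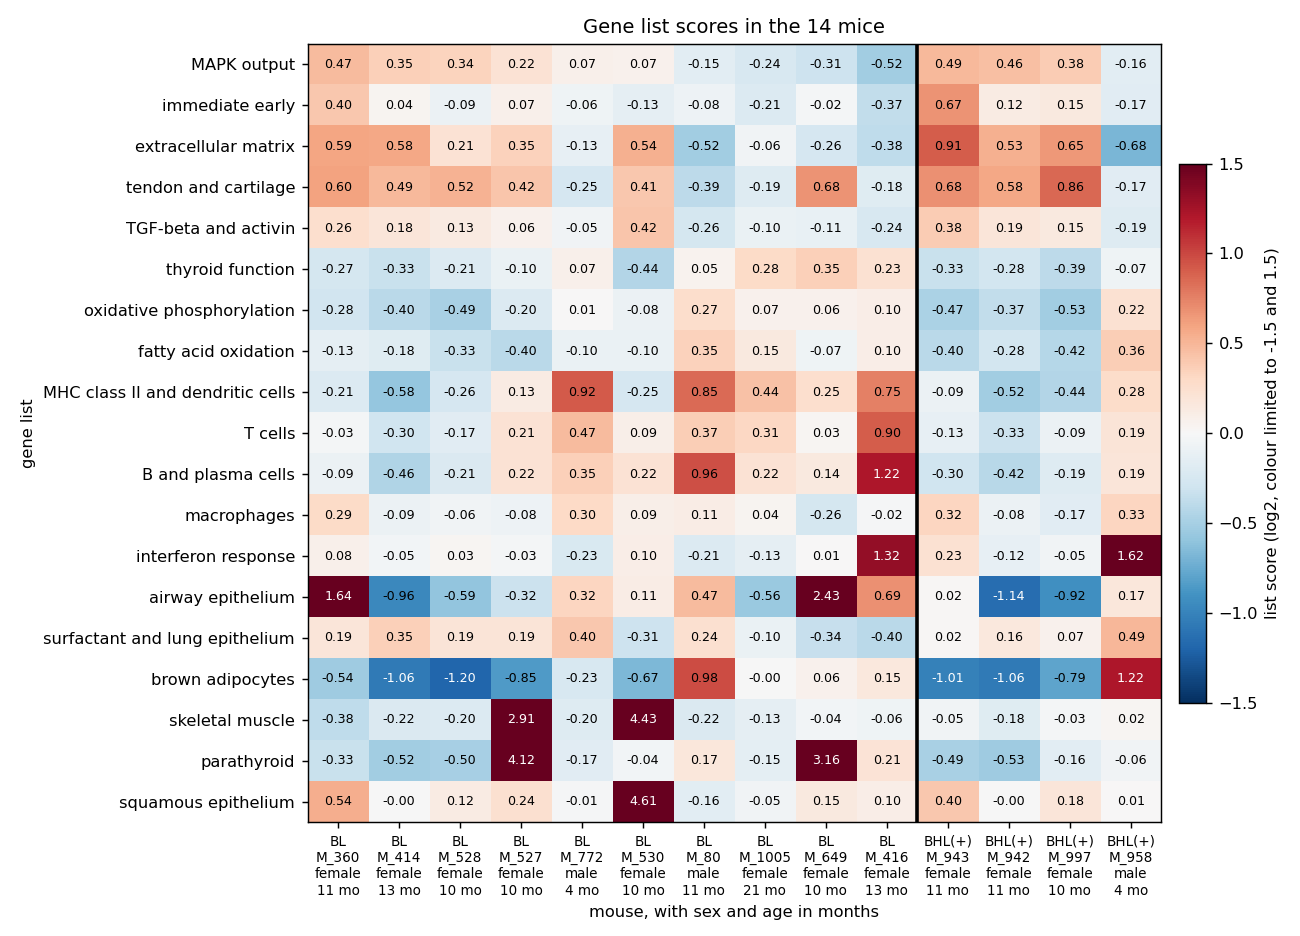
Mean log2 signal of 19 gene lists in each of the 14 mice, relative to the median of each gene over all 38 mice (colour and printed value), with BL left and BRAF(+) BHL right of the black line and mice ordered by MAPK output within each group. The BRAF(+) BHL male M_958 has the lowest MAPK output (-0.16) and matrix (-0.68) scores of its group and the highest interferon score (1.62), and muscle, parathyroid and squamous scores above 2 occur in 3 BL mice.

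Genes of airway and glandular epithelium varied widely within both groups. Bpifa1, a secreted antimicrobial protein of the upper airway, was at 6.06 to 12.63 in BL (median 11.34), against 5.41, 11.24, 9.81 and 6.30 in M_942, M_943, M_958 and M_997. The BRAF(+) BHL mice were spread almost as widely as the BL mice, 5 of which lay inside their range. The difference of 2.66 ± 0.93 (SE; adjusted p = 0.691 from limma) was 1.76 without M_942 and 3.74 without M_943. Of 10 measured airway genes, 9 had the higher mean in BL (median 0.74, 0.46 without M_527, M_530 and M_649, and 0.38 without M_649 alone). Among them were the secretoglobin genes Scgb3a1 (1.10 ± 0.85) and Scgb1a1 (0.72 ± 0.72) and the antimicrobial lectin gene Reg3g (0.94 ± 0.75). Scgb3a1 reached 11.88 in M_649, which also carried parathyroid RNA, and the part of neighbouring tissue in these values was not tested. Foxj1, the defining factor of ciliated cells, was at 4.90 to 5.28 in BL and at 4.89 to 5.19 in BRAF(+) BHL. Ltf, the iron-binding lactoferrin of secretions and neutrophil granules, differed by 1.91 ± 0.88. Surfactant genes did not follow, with 7 of 9 lower in mean in BL (median -0.10, -0.03 without M_527, M_530 and M_649, -0.04 without M_958 and -0.23 without M_997). Sftpb, surfactant protein B, was at 11.19 to 12.79 in BL (median 12.54) and at 12.54 to 12.89 in BRAF(+) BHL, and Chil1, a secreted chitinase-like protein, differed by -0.08 (95% interval -0.93 to 0.77).

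The 18 genes that the study singled out for BRAF(+) carcinoma were chosen with some of these arrays, so their direction is not independent evidence. In BL, 14 of the 18 had the lower mean (median -0.20, and -0.13 without M_416). Besides Dio1 and Fn1, Iqgap2, a scaffold protein, differed by 0.49 ± 0.23 (SE), Plaur, the urokinase receptor, by -0.39 ± 0.24, Rasa1, a RAS GTPase activator, by -0.36 ± 0.22, and Met, the hepatocyte growth factor receptor, by -0.24 ± 0.20. Among 20 measured human PTC markers, 14 were lower in mean in BL, with a median of -0.09 that was -0.02 without M_416. Krt19, a keratin used in diagnosis, differed by -0.39 ± 0.28 and Timp1, a protease inhibitor, by -0.52 ± 0.43. Proliferation genes were level, with a median of 0.03 over 29 genes, and Mki67 differed by -0.06 (95% interval -0.75 to 0.63).

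All 37 measured genes of oxidative phosphorylation had the higher mean in BL, by small amounts, with a median of 0.17 that was 0.25 without M_958 and 0.10 without M_997. The complex I subunit gene Ndufb8 was at 8.07 to 9.49 in BL (median 8.82), against 8.13, 8.05, 9.17 and 7.81 in M_942, M_943, M_958 and M_997, and differed by 0.50 ± 0.24 (SE). In BL the list score was highest in M_80 (0.27), which also had the highest brown adipocyte score of its group (0.98), and lowest in M_528 (-0.49), which had the lowest (-1.20). In BRAF(+) BHL the list score was 0.22 in M_958, where the brown adipocyte score was 1.22, and -0.37, -0.47 and -0.53 in M_942, M_943 and M_997, where it was -1.06, -1.01 and -0.79. The oxidative phosphorylation and brown adipocyte lists share Cox7a1 and Cox8b, so their scores are not independent. The part of brown fat in the difference was not tested. Of 16 measured retinoid handling genes, 10 had the higher mean in BL and 6 the lower (median 0.03, and -0.07 without M_530). Lrat, which esterifies retinol, differed by 0.95 ± 0.40 and Aldh1a1, which makes retinoic acid, by 0.80 ± 0.37, but Aldh1a3 by -0.29. Of 25 genes of epithelial carriers and pumps, 15 were higher in mean in BL and 10 lower (median 0.07). Car4, a carbonic anhydrase, differed by 1.06 ± 0.46, and Kcnj16, an epithelial potassium channel, by 0.61 ± 0.29. In each of Lrat, Aldh1a1, Car4 and Kcnj16 at least 3 BL mice lay inside the BRAF(+) BHL range.

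The largest differences towards lower values in BL were those of 9 probe sets with close numbers, from 10513420 to 10513512, for which no gene is listed in the annotation used here. They were singled out after their values were seen. Probe set 10513420 was at 3.54 to 8.46 in BL (median 5.68), against 8.10, 7.85, 8.66 and 8.28 in M_942, M_943, M_958 and M_997. The 4 BRAF(+) BHL mice, M_958 included, were all high, and 8 of 10 BL mice were below them. The 9 probe sets differed by -2.40 to -2.01, with adjusted p of 0.504 to 0.625 by limma. With muscle and adipocyte scores as covariates, 8 of them passed the threshold. In each of the 9, M_958 was the highest BRAF(+) BHL mouse and 8 of 10 BL mice were below that group. Their profiles were nearly the same, so they are not 9 independent observations. They were at 3.03 to 5.78 in AT of either BRAF status and in BRAF(-) BHL, and at 2.93 to 10.13 in PTC.

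The median SD over the 4388 probe sets was 0.49 in BL and 0.45 in BRAF(+) BHL, and 0.49 in the BL females against 0.35 in the BRAF(+) BHL females. Correlations between arrays over these probe sets were 0.786 to 0.945 within BL, 0.853 to 0.940 within BRAF(+) BHL and 0.816 to 0.951 between the groups, so that some BL arrays were as close to a BRAF(+) BHL array as to another BL array.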

How the data were processed

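Thyroid RNA of 38 mice was hybridised to GeneChip Mouse Gene 1.0 ST arrays, 1 per mouse. The authors deposited log2 signals of 35556 probe sets after RMA normalization, for which no software version was found. Lesion, BRAF status, sex and age follow the sample labels. Gene names came from the platform annotation, 21789 probe sets having 1 symbol, 1621 several (not named) and 12146 none. A gene with several probe sets was represented by the one with the highest mean signal across all 38 mice. No control probe set was removed by name.

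The filter of the study on flat signals was applied first: a probe set stayed if 20% or more of the mice deviated 1.5-fold or more from its median. The study also removed control probe sets, which was not done here, so the set tested is not that of the study. Means of 6 groups, adjusted for sex, were then estimated from all 38 arrays in R 4.3.3 with limma 3.58.1 (lmFit, eBayes). Adjusted p is by Benjamini and Hochberg's method over all 4388 probe sets kept, with a threshold of 0.05. Lists were described, without a set test, by the fit over all probe sets, whose unadjusted p the list counts use. SE and intervals are from the filtered fit, or from the fit over all probe sets for genes that did not pass. The code was tested on simulated data. Figures were drawn with Python 3.11.15 and matplotlib 3.10.9. Nothing says that animals were littermates or not, and the number of mice limits the precision.

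Members and 44 gene lists were chosen with earlier results of these data known. Genes named are the 15 with the smallest unadjusted p in each direction, since none passed, Braf, the 18 genes of the study, the differentiation genes, up to 6 members of each list with the smallest unadjusted p, and defining markers. Dusp4, Dusp6, Mki67, H2-Aa, Chil1, Timp1 and Btc fall outside this rule and were added after their values were seen. Alternatives changed the filter, samples, covariates, scaling, variance model and weights, and left out each mouse. Leaving out the 3 BL mice with other tissue, and keeping females of 10 and 11 months, were chosen after seeing the data.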

Additional observations from a re-analysis of the deposited data

Results flagged for a closer look

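In 80 groups of values checked for a mouse that stood apart from its group, 6 were found. At 1 in 20 some would be found by chance alone. The groups share mice and are not independent, so the count of 6 cannot be weighed against that rate. In BRAF(+) BHL, the male M_958 stood high for Hhatl at 7.96, with the next value at 5.63. M_958 stood low for Prelp at 9.76, with the next value at 11.30, and low for the MAPK output score at -0.16, with the next value at 0.38. The BRAF(+) BHL female M_943 stood high for Prg4 at 9.03, with the next value at 8.10. In BL, M_414 stood low for Bpifa1 at 6.06, with the next value at 9.39, and M_530 stood high for the squamous epithelium score at 4.61, with the next value at 0.54.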

How the results depend on the processing

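Of 30 alternatives to the fit, 28 gave 0 calls by limma. With muscle and adipocyte scores as covariates there were 9 calls, 1 higher (Grp, a log2 difference of 1.77) and 8 lower in BL (all in the run of probe sets without a listed gene). These 8 are not independent observations, and all 9 calls had the same adjusted p of 0.0483 from limma. With array weights there was 1 call, 1 higher in BL (Grp). The cause was not tested. Leaving out single mice gave 0 calls, with 133 (without M_997) to 365 (without M_414) probe sets at an unadjusted p under 0.05 and a smallest adjusted p of 0.0593 to 0.974. Without the 3 BL mice with other tissue, the smallest adjusted p was 0.119. The 30 genes with the smallest unadjusted p kept their sign in 900 of 900 values. They were chosen by that p in these same mice, and the settings share most mice. The count is therefore no independent support for these genes. Over 15 genes the differentiation score differed by 0.29 (0.24 to 0.39 with single mice left out), and over the 6 of them past the filter by 0.72, since the genes left out vary little. The Braf difference was -0.33 to -0.17 with single mice left out. List medians turned sign without 1 mouse for interferon genes (0.15 without M_958), squamous genes (-0.07 without M_530), fibroblasts (0.06 without M_943), adipocytes (-0.12 without M_942), brown adipocytes (-0.11 without M_943), retinoid handling (-0.07 without M_530), proliferation (-0.02 without M_360) and senescence (-0.01 without M_997). Muscle genes had a median of 0.58, and of -0.19 without the 3 BL mice. No paired analysis was possible because mouse numbers are not shared between the groups. There were 4 BRAF(+) BHL mice, 1 of them male and young, and the 95% interval of a difference reached a median of 1.52-fold to either side.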
